A study of Mus musculus with 12 samples.

Results

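The Cyp2c genes encode a subfamily of cytochrome P450 enzymes, and 10 of them were followed here: Cyp2c69, Cyp2c40, Cyp2c29, Cyp2c37, Cyp2c38, Cyp2c39, Cyp2c50, Cyp2c54, Cyp2c68 and Cyp2c70. They were taken by gene name from a table of 19252 genes measured by RNA sequencing in mouse liver. The animals were C57BL/6 mice, an inbred laboratory strain, and each of the 3 groups gave 4 libraries. NAC_HFD mice ate a high fat diet and drank water with 2 g/L N-acetylcysteine, an antioxidant that supplies cysteine for glutathione synthesis. HFD mice ate the high fat diet alone, and NFD mice ate a normal fat diet. Feeding lasted 14 weeks in all groups. The labels give an age of 8 weeks for all animals and do not say at which point it applies. An animal fed for 14 weeks is older than 8 weeks, so this is not the age at the end of feeding. Values are in TPM, a share of the transcripts of a library after division by transcript length.

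Cytochromes P450 of this subfamily sit in the membrane of the endoplasmic reticulum, bind heme and receive electrons from the reductase Por, and in hepatocytes they oxidise drugs, steroids and fatty acids. Several mouse members turn arachidonic acid into epoxyeicosatrienoic acids or hydroxylated acids, which act as lipid signals, while Cyp2c70 makes the muricholic acids typical of mouse bile. In liver, members of the subfamily are known as targets of the xenobiotic receptors CAR and PXR, and some differ in level between male and female mice.

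The labelled tissue was matched by its markers: 10 of 10 hepatocyte markers were detected, with a summed level of 60071 to 80032 TPM in NAC_HFD livers, 55817 to 73687 TPM in HFD livers and 61598 to 66468 TPM in NFD livers. All 12 libraries contained RNA of the Y-linked gene Ddx3y, at 17.2 to 19.5 TPM in NAC_HFD, 11.8 to 18.4 TPM in HFD and 16.6 to 18.2 TPM in NFD, and the labels do not give the sex of the animals. Between 10864 and 11316 genes per library reached 1 TPM, and libraries of 1 group correlated with each other at a mean Pearson r of 0.978 to 0.989 on the log2(TPM + 1) scale. Read depth cannot be read from TPM, so the depth behind each value is unknown.

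Differences were tested with limma on log2(TPM + 1) in 1 model of all 12 libraries, over the 11376 genes that reached 1 TPM in at least 4 libraries, with Benjamini-Hochberg adjusted p-values over all of these genes and a threshold of 0.05. All 10 members passed this filter, Cyp2c69 only through its NFD libraries. A gene that passes in this way has to be high in that group, so its place among the members that passed is no support for a count. The labels do not say whether libraries came from separate animals, so the p-values measure the spread between these libraries. The HFD libraries serve in the comparisons of NAC_HFD with HFD and of HFD with NFD, and the NFD libraries likewise serve in 2 comparisons, so the comparisons are not independent.

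The mean levels of the 10 genes lay between 0.153 and 570 TPM. Cyp2c29, an arachidonic acid epoxygenase, was the most abundant, with a mean level of 533 ± 118 TPM in NAC_HFD, 466 ± 70.7 TPM in HFD and 570 ± 78.4 TPM in NFD (SD, n = 4 each). Cyp2c50, which also makes epoxides of arachidonic acid, followed with 509 ± 57.1 TPM in NAC_HFD, 456 ± 29.3 TPM in HFD and 465 ± 109 TPM in NFD. In each group the means of Cyp2c50 and Cyp2c29 differed by less than the larger of their SDs, so the order of this pair was not resolved. By their means, Cyp2c70 was the next, then Cyp2c54, Cyp2c37 and Cyp2c68, whose mean levels lay between 98.4 and 181 TPM. In NAC_HFD, Cyp2c70 and Cyp2c50 had almost the same mean level (508 and 509 TPM). By the same measure, the order of Cyp2c37 and Cyp2c68 was not resolved in any group, that of Cyp2c54 and Cyp2c37 not in HFD and NFD, and that of Cyp2c70 and Cyp2c54 not in NFD.

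The remaining 4 members were low. Cyp2c38 had a mean level of 22.2 ± 15.1 TPM in NAC_HFD, 33.9 ± 13.4 TPM in HFD and 13.6 ± 5.11 TPM in NFD. Cyp2c40 had 9.63 ± 2.57 TPM in NAC_HFD, 6.46 ± 1.004 TPM in HFD and 15.98 ± 4.52 TPM in NFD, so Cyp2c38 stood above Cyp2c40 by more than 1 SD in HFD, whereas in NAC_HFD and NFD they differed by less than the larger SD. Cyp2c39 and Cyp2c69 were the lowest, at mean levels of 0.153 to 3.37 TPM. Their order also depended on the group: Cyp2c69 was below Cyp2c39 in NAC_HFD and HFD, and in NFD the 2 means (2.40 ± 0.479 TPM for Cyp2c69 and 1.89 ± 0.451 TPM for Cyp2c39) differed by little more than 1 SD.

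**Figure D1:**
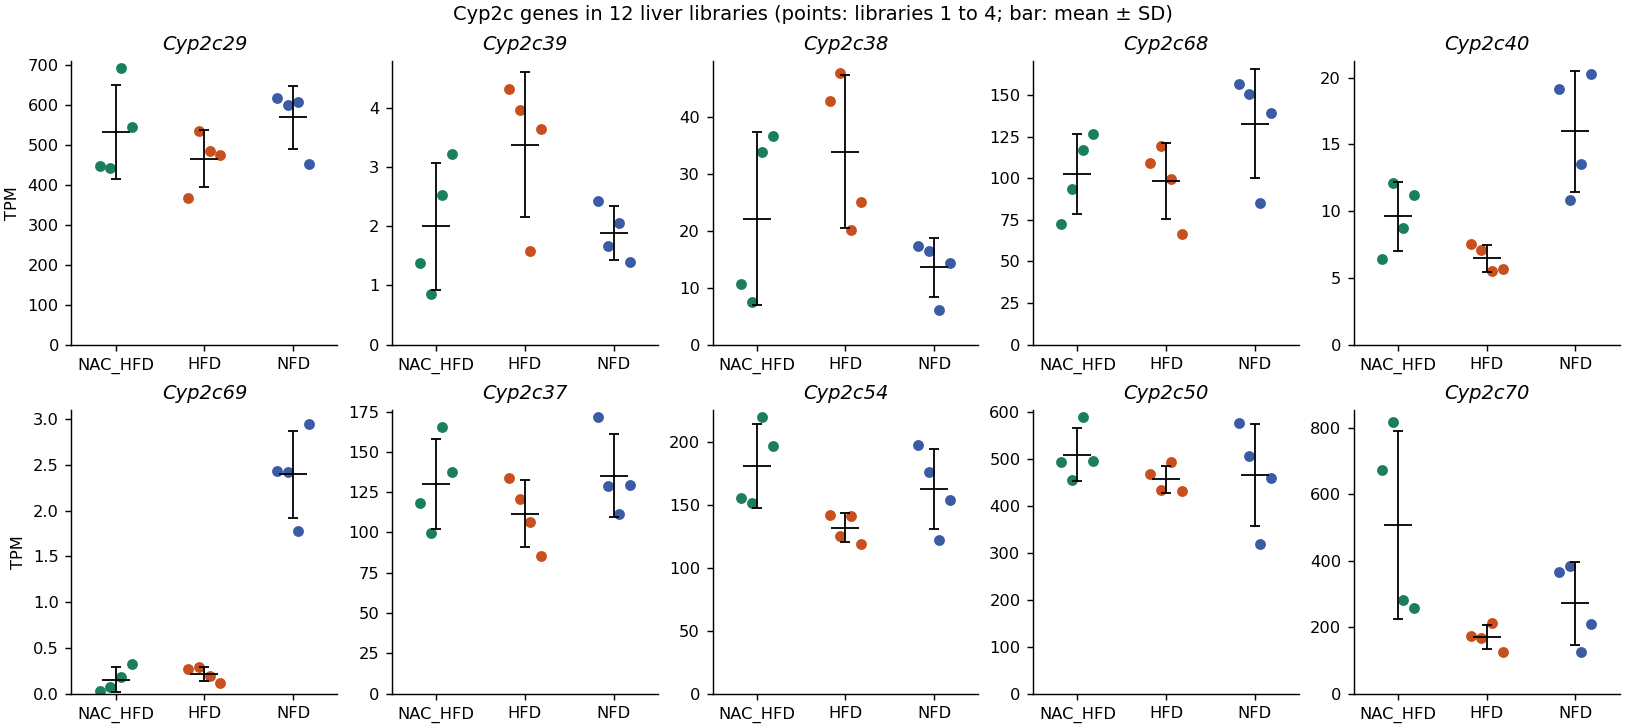
Level in TPM (y axis, linear, starting at 0) of each of the 10 Cyp2c genes in NAC_HFD, HFD and NFD livers (x axis), with 1 point per library and bars for mean ± SD, n = 4 per group. Cyp2c69 sits at 0.03 to 0.33 TPM in all NAC_HFD and HFD libraries and at 1.78 to 2.95 TPM in NFD libraries.

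High fat feeding was accompanied by lower levels of 2 neighbouring genes, Cyp2c69 and Cyp2c40, and by no change that passed the test in the other 8 members. Of the 10 members, 2 fell in HFD against NFD livers and 0 rose (limma, adjusted p under 0.05), where 0.589% of all genes tested fell and 2.78% changed in either direction. Over all genes tested, 249 rose and 67 fell, a split of 188 and 99 after rescaling each library to the same total and of 259 and 160 after quantile normalization. In 3 of the 10, the HFD and NFD libraries did not overlap, against 12.4% of all genes: Cyp2c69 and Cyp2c40 were lower in each HFD library, and Cyp2c38 was higher. Cyp2c69 passed the floor only through its NFD libraries, so its part in these counts of members is no support. Cyp2c40 is the only member called that remains. The median log2 fold change was −0.29 over the members and 0.01 over all genes tested. In RNA of whole liver, fewer cells of a type and less RNA per cell cannot be told apart.

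Cyp2c69 is a little studied member of the subfamily (ENSMUSG00000092008, chromosome 19, 39842660 to 39886769, minus strand, GRCm38.p6). It had 0.27, 0.29, 0.19 and 0.12 TPM in the HFD libraries, against 2.43, 2.42, 1.78 and 2.95 TPM in the NFD libraries. Each HFD library was below each NFD library by a wide margin. The mean level in HFD was 0.0908 of the mean in NFD, and the log2 fold change on the log2(TPM + 1) scale was −1.47 (SE 0.12). The adjusted p by limma was 8.99e-05. Cyp2c69 was tested only because its NFD libraries reached the floor, so its place among the genes tested is no support. With no filter on low values, the adjusted p by limma was 4.06e-04. The pseudocount of 1 TPM shrinks the fold change of so low a gene: with 0.1 TPM it was −2.99 (adjusted p 0.00120). The gene lies below 1 TPM in every HFD library, and it was not tested under a floor of 5 TPM or, under the floor used here, when any NFD library was left out. With the floor lowered to 1 TPM in 3 libraries, it passed limma's test in each of the 8 fits without 1 HFD or NFD library (adjusted p at most 8.58e-04). It entered these fits too only through its NFD libraries, so they are no further support.

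Cyp2c40, an enzyme that hydroxylates arachidonic acid near its end, lies next to Cyp2c69 on the same strand (ENSMUSG00000025004, chromosome 19, 39767073 to 39812814, minus strand). It had 7.51, 7.12, 5.53 and 5.67 TPM in the HFD libraries, against 19.2, 10.8, 13.6 and 20.3 TPM in the NFD libraries. Every HFD library was below every NFD library, with HFD 1 closest to NFD 2. On the log2 scale the difference was −1.16 (SE 0.21, adjusted p = 0.0131 by limma), and the mean level in HFD was 0.404 of that in NFD. Without HFD replicate 4 the adjusted p was 0.0519, above the threshold, and over the settings that kept all libraries it ranged up to 0.0370.

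Their promoter sequences are shown because these neighbours, which share the direction of change, are near copies of each other at the start of the gene. The RefSeq promoters (GRCm38.p6) of Cyp2c40 and Cyp2c69 were identical at 267 of 270 aligned bases (98.9%). That of Cyp2c68, the next gene on the chromosome, was identical to Cyp2c40 at 93.3% and to Cyp2c69 at 92.6% of aligned bases. Each sequence below runs 5′ to 3′ on the minus strand of chromosome 19 over 300 bases, and capitals mark TATAAA (the letters of a TATA box), CAAAGTC (part of the site bound by HNF4) and ATTAAC (the reverse of GTTAAT, part of the site bound by HNF1).
Cyp2c69 (chr19:39886720-39887019): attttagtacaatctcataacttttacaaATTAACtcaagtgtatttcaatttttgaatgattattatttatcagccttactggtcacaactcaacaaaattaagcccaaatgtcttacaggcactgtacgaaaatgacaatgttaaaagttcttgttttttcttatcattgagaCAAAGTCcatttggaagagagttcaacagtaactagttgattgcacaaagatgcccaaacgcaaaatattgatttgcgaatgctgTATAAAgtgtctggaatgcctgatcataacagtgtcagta
Cyp2c40 (chr19:39812765-39813064): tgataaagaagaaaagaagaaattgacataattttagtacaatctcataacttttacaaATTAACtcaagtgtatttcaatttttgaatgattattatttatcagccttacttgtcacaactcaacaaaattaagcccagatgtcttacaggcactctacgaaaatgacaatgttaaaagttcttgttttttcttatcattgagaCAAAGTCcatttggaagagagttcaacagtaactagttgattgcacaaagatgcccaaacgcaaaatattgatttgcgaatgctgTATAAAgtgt
Cyp2c68 (chr19:39741052-39741351): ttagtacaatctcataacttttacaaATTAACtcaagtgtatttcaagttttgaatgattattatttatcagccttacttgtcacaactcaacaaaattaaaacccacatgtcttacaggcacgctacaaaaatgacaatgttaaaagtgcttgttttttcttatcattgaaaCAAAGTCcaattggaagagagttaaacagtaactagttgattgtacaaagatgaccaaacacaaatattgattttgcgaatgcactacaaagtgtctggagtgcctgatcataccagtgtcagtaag
All 3 sequences held ATTAAC upstream of CAAAGTC, while TATAAA was in those of Cyp2c69 and Cyp2c40 and not in that of Cyp2c68. The promoter of Cyp2c67, a gene outside the 10 that did not pass the test, is not shown. Its identity was 93.2% of aligned bases to Cyp2c40 and 92.8% to Cyp2c69. It held CAAAGTC and TATAAA, so TATAAA was not particular to Cyp2c69 and Cyp2c40. Counted from the annotated start site, TATAAA began at 11 in Cyp2c69 and at 41 in Cyp2c40, downstream of that start. The submitters' processing notes name RSEM, and no source used here gives its settings for reads that match several near-identical members. The values of Cyp2c40, Cyp2c69, Cyp2c68 and Cyp2c67 may share reads and are uncertain to that extent.

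Cyp2c68, for all its likeness to the pair, did not pass the test. It had 109, 119, 99.4 and 66.4 TPM in the HFD libraries, against 156, 151, 85.2 and 139 TPM in the NFD libraries. The groups overlapped through NFD 3, and the log2 fold change was −0.42 (SE 0.23, 95% interval −0.93 to 0.08, adjusted p = 0.353). Cyp2c67, the fourth minus-strand gene of this block and not among the 10, had a log2 fold change of −0.42 (SE 0.18, adjusted p = 0.224).

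Cyp2c38, an arachidonic acid epoxygenase, had higher values in HFD that did not pass the test. It had 42.7, 47.7, 20.1 and 25.1 TPM in the HFD libraries, against 17.3, 16.5, 6.10 and 14.4 TPM in the NFD libraries. Each HFD library was above each NFD library, but HFD libraries 1 and 2 were far above libraries 3 and 4. Its log2 fold change was 1.27 with a wide error (SE 0.53, adjusted p = 0.234). Cyp2c39, known for hydroxylating retinoic acid, had a log2 fold change of 0.56 (SE 0.27, adjusted p = 0.284), with HFD 3 (1.58 TPM) inside the NFD range of 1.40 to 2.43 TPM. Cyp2c38 lies on the minus strand inside the annotated span of Cyp2c39 on the plus strand, and no source used here gives whether the authors' counting used strand, so reads of this pair cannot be told apart with certainty.

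None of the 5 remaining members passed the test in HFD against NFD livers (adjusted p 0.340 to 0.998). The log2 fold change was −0.29 for Cyp2c29 (95% interval −0.64 to 0.06), −0.28 for Cyp2c54 (−0.61 to 0.05) and −0.28 for Cyp2c37 (−0.65 to 0.10). For Cyp2c70 it was −0.57 with a wide interval (−1.55 to 0.42). For Cyp2c50 it was 0.0016 (−0.33 to 0.33), and its sign changed to negative under each of 3 other scalings of the libraries.

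**Figure D2:**
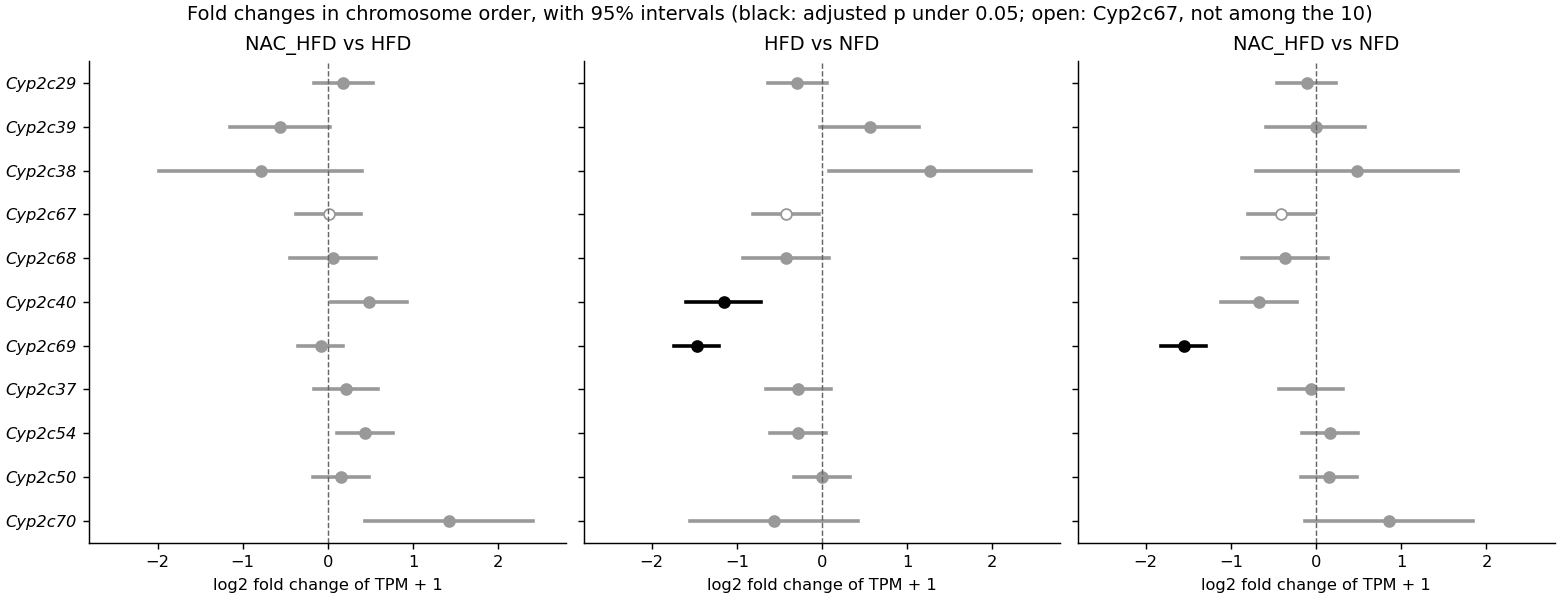
Log2 fold change of TPM + 1 (x axis) with 95% intervals for the 10 members and Cyp2c67 (y axis, in chromosome order), in NAC_HFD against HFD, HFD against NFD and NAC_HFD against NFD. Black marks an adjusted p under 0.05 by limma: Cyp2c40 (−1.16) and Cyp2c69 (−1.47) in HFD against NFD, and Cyp2c69 (−1.55) in NAC_HFD against NFD.

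Of the adipose markers tested, 1 of 1 rose in HFD against NFD, as did 1 of 2 intestinal markers. The 6 adipose markers (5 in the table, none at 0 in every library) summed to 0.35 to 2.27 TPM in NAC_HFD, 6.34 to 36.3 TPM in HFD and 0.19 to 0.70 TPM in NFD, and the summed intestinal markers were 69.6 to 77.5 TPM in NAC_HFD, 116 to 140 TPM in HFD and 63.7 to 94.8 TPM in NFD. Macrophage markers summed to 71.3 to 136 TPM in NAC_HFD, 102 to 252 TPM in HFD and 77.7 to 143 TPM in NFD, and 0 of the 10 passed the test in any comparison. Their part in the Cyp2c results was not tested.

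N-acetylcysteine on the high fat diet came with no Cyp2c change that passed the test. In NAC_HFD against HFD livers, 0 of the 10 members passed, as did 0% of the 11376 genes tested by limma. At an unadjusted p under 0.05 there were 3 members (Cyp2c70, Cyp2c54 and Cyp2c40, all with higher means in NAC_HFD) and 1870 of all genes. The groups did not overlap for 2 members, Cyp2c70 and Cyp2c54, against 10.2% of all genes in either direction and 1.56% of all genes with NAC_HFD higher. The median log2 fold change was 0.17 over the members and −0.08 over all genes tested.

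Cyp2c70, the muricholic acid enzyme (ENSMUSG00000060613, chromosome 19, 40153361 to 40187286, minus strand), had the largest fold change of the 10 in this comparison. It had 673, 818.5, 282 and 258 TPM in the NAC_HFD libraries, against 173, 168, 214 and 125 TPM in the HFD libraries. Every NAC_HFD library was above every HFD library, with NAC_HFD 1 and 2 far above NAC_HFD 3 and 4. Its log2 fold change was 1.42 (SE 0.45, 95% interval 0.43 to 2.41, unadjusted p 0.00918, adjusted p = 0.173 by limma). The mean in NAC_HFD was 2.99 times that in HFD, with an SD of 281 TPM within NAC_HFD and 36.4 TPM within HFD.

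Cyp2c54, another arachidonic acid epoxygenase, had 156, 152, 221 and 197 TPM in the NAC_HFD libraries, against 142, 126, 141 and 119 TPM in the HFD libraries. Each NAC_HFD library was above each HFD library, by a small margin for NAC_HFD 1 and 2. This gave a log2 fold change of 0.44 (SE 0.15, adjusted p = 0.186). Cyp2c40 had 6.43, 12.1, 8.73 and 11.2 TPM in the NAC_HFD libraries, against 5.53 to 7.51 TPM in the HFD libraries. NAC_HFD 1 was inside the HFD range, and the log2 fold change was 0.49 (SE 0.21, adjusted p = 0.266).

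Cyp2c69, which fell on the high fat diet, was listed at 0.03, 0.07, 0.18 and 0.33 TPM in the NAC_HFD libraries, against 0.12 to 0.29 TPM in the HFD libraries. The groups overlapped and the log2 fold change was −0.08 (95% interval −0.35 to 0.18, adjusted p = 0.774), turning positive under quantile normalization. Cyp2c38 had 10.7, 7.57, 33.8 and 36.6 TPM in the NAC_HFD libraries, against 20.1 to 47.7 TPM in the HFD libraries. NAC_HFD 1 and 2 were below the HFD range and NAC_HFD 3 and 4 inside it, and the log2 fold change was −0.79 (SE 0.53, adjusted p = 0.488). Cyp2c39 showed the same pattern of libraries at a lower level, with 1.37, 0.86, 2.53 and 3.22 TPM in NAC_HFD against 1.58 to 4.31 TPM in HFD, a log2 difference of −0.57 (SE 0.27, adjusted p = 0.318). The log2 fold changes of Cyp2c29, Cyp2c37, Cyp2c50 and Cyp2c68 were 0.18, 0.21, 0.15 and 0.06, with adjusted p between 0.572 and 0.930.

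In NAC_HFD against NFD livers, Cyp2c69 was again the member that passed the test. Of the 10 members, 1 fell and 0 rose, where 3.52% of all genes tested fell and 5.28% changed in either direction. Over all genes 200 rose and 401 fell, a split of 371 and 251 with median-of-ratios scaling and of 314 and 294 with quantile normalization. The groups did not overlap for 1 of the 10, against 12% of all genes. Both counts of members rest on Cyp2c69, which passed the floor only through its NFD libraries, so they are no support. None of the other members passed the test. The mean level of Cyp2c69 in NAC_HFD was 0.0637 of that in NFD, with a log2 fold change of −1.55 (SE 0.12, adjusted p = 6.12e-05 by limma). With a pseudocount of 0.1 TPM the log2 fold change was −3.44. Without 1 NFD library the gene was not tested under the floor used here. With the floor lowered to 3 libraries it passed in each of the 8 fits without 1 NAC_HFD or NFD library. Because only NFD libraries brought it into these fits, they are no further support.

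Cyp2c40 had a log2 fold change of −0.67 in NAC_HFD against NFD (SE 0.21, adjusted p = 0.0776). Without NFD replicate 2, its lowest NFD library, the adjusted p was 0.0335, and it ranged from 0.0335 to 0.184 over the fits without 1 library. The log2 fold change of Cyp2c70 was 0.85 (SE 0.45, adjusted p = 0.287), and NAC_HFD libraries 1 and 2 were above all NFD libraries while libraries 3 and 4 lay inside the NFD range of 126 to 383 TPM. For Cyp2c38 it was 0.48 (95% interval −0.71 to 1.67), and for Cyp2c68 −0.36 (−0.87 to 0.14). The other 5 members had log2 fold changes between −0.11 and 0.16, and the signs of Cyp2c37 and Cyp2c39 turned positive with median-of-ratios scaling. The median was −0.03 over the members and −0.07 over all genes tested.

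**Figure D3:**
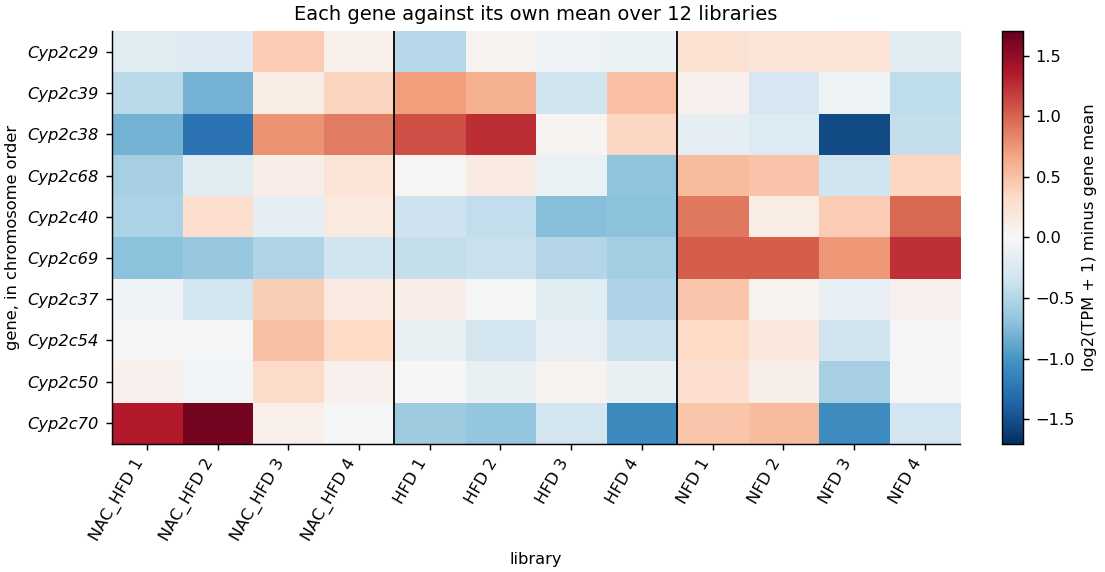
Difference of log2(TPM + 1) from the gene's own mean over the 12 libraries (colour, from blue for lower to red for higher) for each of the 10 members (y axis, in chromosome order) in each library (x axis, NAC_HFD, HFD and NFD from left to right). NAC_HFD 1 and 2 are high for Cyp2c70 and low for Cyp2c38, whereas NAC_HFD 3 and 4 are not, and Cyp2c69 is red in the NFD libraries alone.

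The members did not vary as 1 unit across libraries. In NAC_HFD 1 and 2, Cyp2c70 reached 673 and 818.5 TPM, above its level in NAC_HFD 3 and 4. Cyp2c40 had no such split. All the other members were lower in NAC_HFD 1 and 2 than in 3 and 4. For Cyp2c50 the margin was small (494 TPM in NAC_HFD 1 and 496 TPM in NAC_HFD 4). NFD 3 was the lowest NFD library for Cyp2c70 (126 TPM), Cyp2c50 (319 TPM), Cyp2c54 (123 TPM) and Cyp2c68 (85.2 TPM). The same held for Cyp2c37 (112 TPM), Cyp2c38 (6.10 TPM) and Cyp2c69 (1.78 TPM). It did not hold for Cyp2c29 (607 TPM), Cyp2c40 (13.6 TPM) or Cyp2c39 (2.05 TPM). The summed level of the 10 was 1813 to 2114 TPM in NAC_HFD, 1336 to 1565 TPM in HFD and 1395 to 2130 TPM in NFD. These sums were 0.267 to 0.310% of the gene table in NAC_HFD, 0.193 to 0.223% in HFD and 0.204 to 0.306% in NFD. The NAC_HFD sums were thus all above the HFD sums, and the NFD sums overlapped with those of both other groups. Leaving out Cyp2c70 makes the NAC_HFD and HFD sums overlap, so this separation is not a trait of all members. Cyp2c70 made up 34.0, 39.3, 13.3 and 14.2% of the sum in the NAC_HFD libraries, against 9.33 to 13.6% in the HFD libraries.

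**Figure D4:**
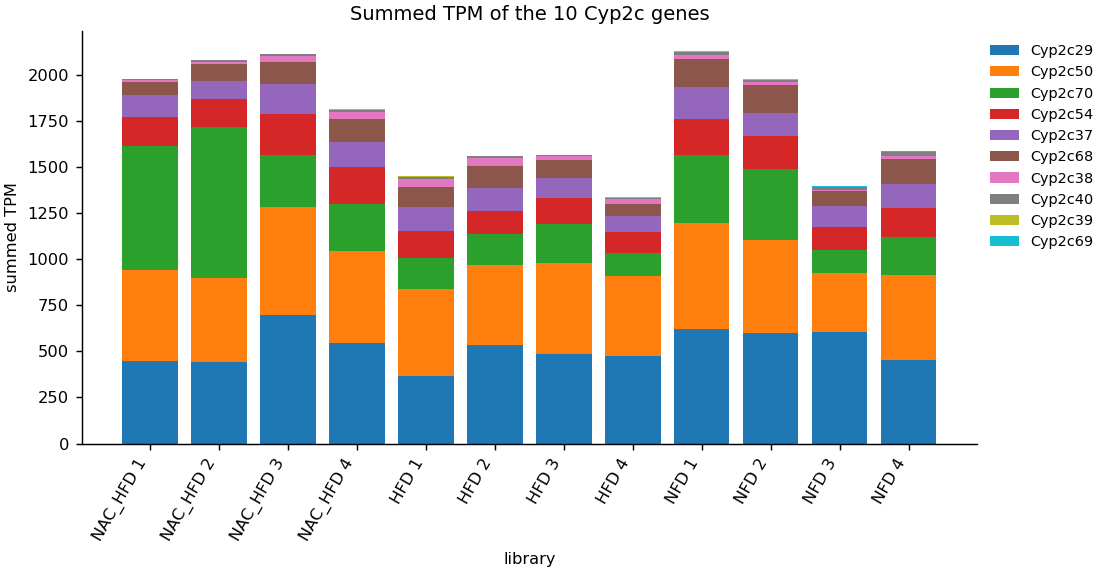
Summed TPM of the 10 members (y axis, linear, starting at 0) in each of the 12 libraries (x axis), stacked by gene. Cyp2c29, Cyp2c50 and Cyp2c70 make up most of each bar, and the Cyp2c70 section is tallest in NAC_HFD 1 and 2.

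The deposited transcript tables divide the members into 13 mRNA transcripts and 3 transcripts in the lncRNA table that passed the floor of 1 TPM in 4 libraries. The lower level of Cyp2c40 was seen in its main mRNA, ENSMUST00000160476. It had 1.78, 2.05, 2.69 and 2.39 TPM in the NAC_HFD libraries and 2.55, 2.73, 2.33 and 2.09 TPM in the HFD libraries, against 6.62, 7.92, 5.37 and 9.17 TPM in the NFD libraries. Every NFD library was above every library of the other 2 groups. The log2 fold change was −1.25 in HFD against NFD (SE 0.15, adjusted p = 0.00469) and −1.34 in NAC_HFD against NFD (SE 0.15, adjusted p = 0.00721), by limma over 18183 mRNA transcripts. In NAC_HFD against HFD it was −0.09 (95% interval −0.42 to 0.24). At the level of mRNA transcripts, 2 of 13 fell in HFD against NFD (0.066% of all mRNA transcripts fell) and 2 of 13 fell in NAC_HFD against NFD (0.566% fell), these being ENSMUST00000160476 and the Cyp2c69 transcript ENSMUST00000168838. The Cyp2c69 transcript passed the floor only through its NFD libraries, so its part in these counts is no support, and ENSMUST00000160476 is the 1 that remains. In NAC_HFD against HFD, 0 of 13 passed (0.0055% of all in either direction). At an unadjusted p under 0.05 by limma there were 2 of 13, beside 2202 of all 18183 mRNA transcripts.

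Neither of the other transcripts of Cyp2c40 passed the test in any comparison. The mRNA ENSMUST00000162507 had 1.11 to 2.00 TPM in the HFD libraries, against 0.26 to 1.41 TPM in the NFD libraries, and was listed at 0 in NAC_HFD 2 (log2 fold change of HFD against NFD 0.53, SE 0.34, adjusted p = 0.519). The transcript ENSMUST00000163090 of the lncRNA table had 4.46, 10.1, 3.93 and 7.87 TPM in the NAC_HFD libraries, against 3.05, 2.39, 2.10 and 2.11 TPM in the HFD libraries. Each NAC_HFD library was above each HFD library, while the NFD libraries, at 11.2, 1.69, 7.94 and 10.6 TPM, spread around both. Its mean in HFD was 0.308 of that in NFD, near the 0.334 of the main mRNA, with a log2 fold change of −1.17 and a wider error (SE 0.42, adjusted p = 0.388). The log2 fold change of NAC_HFD against HFD was 1.08 (SE 0.42, adjusted p = 0.294 over 10024 lncRNA transcripts). This transcript made up 67.0 ± 15.9% of the Cyp2c40 TPM in NAC_HFD and 37.3 ± 2.88% in HFD (SD, n = 4 each; exact permutation test, two-sided, p = 0.0286, the smallest that 4 against 4 libraries allow, and 0.257 after adjustment over 9 such tests).

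Cyp2c70 also has a transcript in the lncRNA table, ENSMUST00000164351. It had 248, 392, 91.3 and 98.4 TPM in the NAC_HFD libraries, against 57.4, 38.4, 49.6 and 30.9 TPM in the HFD libraries. The groups did not overlap, and NAC_HFD 1 and 2 were again far above NAC_HFD 3 and 4. Its log2 fold change was 1.98 (SE 0.49, adjusted p = 0.123 by limma). The mRNA ENSMUST00000051846 had 425, 427, 190 and 159 TPM in the NAC_HFD libraries, against 116, 129, 164 and 93.7 TPM in the HFD libraries, with NAC_HFD 4 below HFD 3 and a log2 fold change of 1.14 (SE 0.40, adjusted p = 0.314). The lncRNA transcript made up 38.8 ± 6.51% of the Cyp2c70 TPM in NAC_HFD and 26.0 ± 4.82% in HFD (SD, n = 4 each; exact permutation p = 0.0571, adjusted 0.257). Cyp2c50 has another such transcript, ENSMUST00000124391, at 10.4 ± 1.82% of its TPM in NAC_HFD and 9.55 ± 1.56% in HFD (exact permutation p = 0.514). Of the 3 lncRNA-table transcripts, 0 passed limma's test in NAC_HFD against HFD (0.0399% of all lncRNA transcripts in either direction). At an unadjusted p under 0.05 by limma there were 2 of the 3, beside 1370 of all 10024 lncRNA transcripts. In 2 of the 3 the groups did not overlap, against 7.73% of all lncRNA transcripts.

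**Figure D5:**
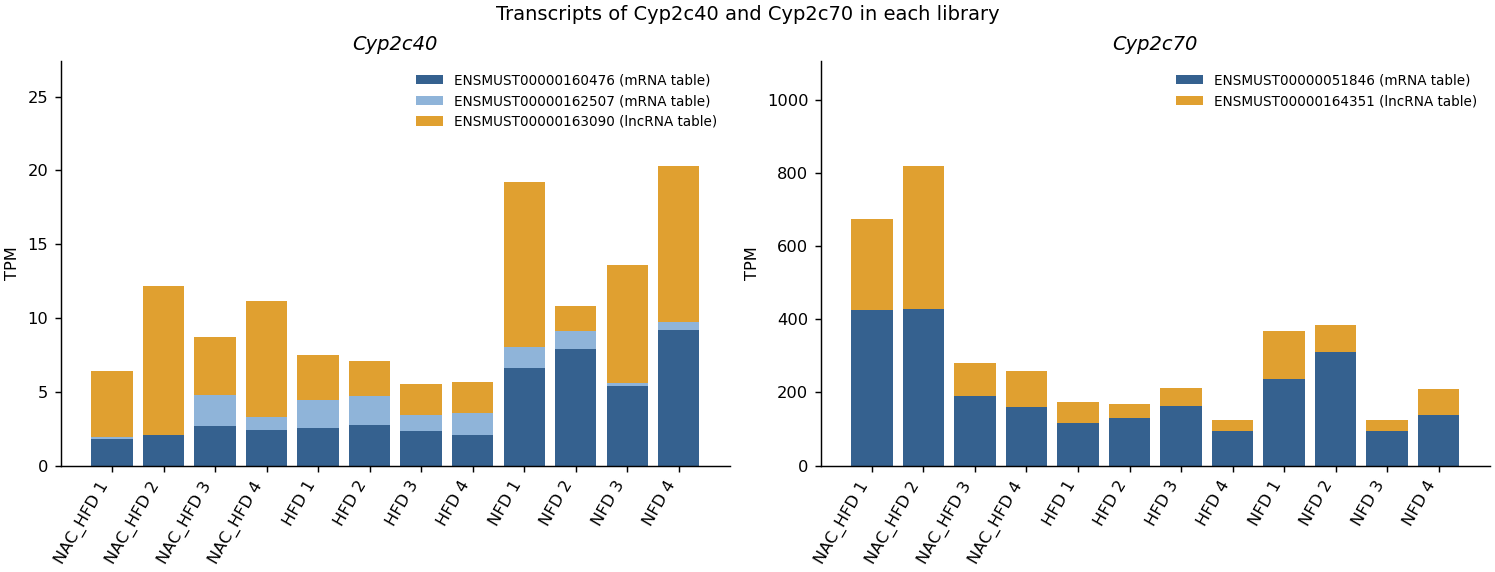
TPM (y axis, linear, starting at 0) of the transcripts of Cyp2c40 (left) and Cyp2c70 (right) in each library (x axis), stacked, with mRNA-table transcripts in blue and the lncRNA-table transcript in orange. The dark blue mRNA of Cyp2c40 is at 1.78 to 2.73 TPM in NAC_HFD and HFD libraries and at 5.37 to 9.17 TPM in NFD libraries.

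The authors' deposited tables of comparisons list some of these transcripts, with a test that no source used here names. For HFD against NFD, the authors' deposited table gives a log2 fold change of −3.48 for the Cyp2c69 transcript (adjusted p 5.48e-08), −1.57 for Cyp2c40 ENSMUST00000160476 (adjusted p 3.36e-11), −1.74 for Cyp2c40 ENSMUST00000163090 (adjusted p 0.0937) and 1.33 for Cyp2c38 (adjusted p 0.147). For NAC_HFD against HFD, the authors' deposited table gives 1.36 for the Cyp2c70 mRNA (adjusted p 0.0494), 2.36 for the Cyp2c70 lncRNA transcript (adjusted p 4.56e-04) and 1.65 for Cyp2c40 ENSMUST00000163090 (adjusted p 0.176). The directions are those of the limma fits above, and the pair of Cyp2c70 transcripts is past 0.05 in the authors' deposited table but not by limma on TPM.

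Position and sequence set the members apart in ways the choice by name did not use. In the RefSeq annotation (GRCm38.p6) 14 Cyp2c genes fill 1.18 Mb of chromosome 19, from 39006940 to 40187286, and the 10 members lie in the order Cyp2c29, Cyp2c39, Cyp2c38, Cyp2c68, Cyp2c40, Cyp2c69, Cyp2c37, Cyp2c54, Cyp2c50 and Cyp2c70. The 2 members that fell on the high fat diet are neighbours within this order. The last gene of the block, Cyp2c70, had the promoter least like the rest, identical at 53.1 to 57.7% of aligned bases to the 10 other promoters compared. Its promoter and that of Cyp2c38 are shown as those of the members with the largest standard errors on the log2(TPM + 1) scale, on the minus strand and with the same motifs in capitals (TTTATA is TATAAA on the other strand).
Cyp2c38 (chr19:39463026-39463325): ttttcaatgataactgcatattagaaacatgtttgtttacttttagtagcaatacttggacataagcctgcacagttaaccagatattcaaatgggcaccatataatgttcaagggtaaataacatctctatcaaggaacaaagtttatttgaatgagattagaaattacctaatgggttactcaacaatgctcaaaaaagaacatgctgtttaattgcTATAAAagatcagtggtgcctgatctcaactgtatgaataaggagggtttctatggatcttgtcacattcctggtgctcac
Cyp2c70 (chr19:40187237-40187536): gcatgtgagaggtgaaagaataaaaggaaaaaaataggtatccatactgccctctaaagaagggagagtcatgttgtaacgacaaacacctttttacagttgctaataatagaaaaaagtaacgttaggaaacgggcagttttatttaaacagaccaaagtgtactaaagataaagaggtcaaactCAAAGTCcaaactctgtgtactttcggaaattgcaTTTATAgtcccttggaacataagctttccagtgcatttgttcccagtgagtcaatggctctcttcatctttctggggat
RefSeq promoters were found for 9 of the 10 members, with 2 start sites for Cyp2c39, which gave 10 promoters of 300 bases. They were searched on both strands. CAAAGTC was in 8 of the 10, against 4.44% of all 32851 mouse promoters of this length, and the exceptions were Cyp2c38 and Cyp2c50. GTTAAT was in 3 of the 10, those of Cyp2c68, Cyp2c40 and Cyp2c69, against 7.10% of all promoters. TATAAA was in 6 of the 10 (13.6% of all), TGTTTAC, the letters bound by FOXA proteins, in 3 (3.65%), TTGCNNAA (C/EBP) in 3 (10.8%), AGGTCA (nuclear receptors) in 3 (16.3%) and TTCNNNGAA (STAT) in 0 (8.30%). Several of these promoters are near copies of each other and so are not independent, and a match of letters does not show that a factor binds.

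Of the other Cyp2c genes, 5 were in the table and 2 passed the floor. Cyp2c67 had 165 to 226 TPM in NAC_HFD, 150 to 235 TPM in HFD and 174 to 293 TPM in NFD. Cyp2c23, which makes epoxides in kidney and lies apart from the cluster at 44005022 to 44029256, had 155 to 222 TPM in NAC_HFD, 101 to 165 TPM in HFD and 115 to 199 TPM in NFD. Its log2 fold change was −0.56 in HFD against NFD (SE 0.20, adjusted p = 0.147) and 0.65 in NAC_HFD against HFD (SE 0.20, adjusted p = 0.146), so neither passed. Cyp2c55, Cyp2c66 and Cyp2c65 were at most 0.64, 0.41 and 0.05 TPM in any library.

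The counts for the lists that follow stand beside 2.78% of all genes called in HFD against NFD and 5.28% in NAC_HFD against NFD. The lists are short, and nothing is read from a count of 1 or 2 calls about a list. Of 13 tested genes for electron donors and heme synthesis, 2 rose in HFD against NFD and 0 fell: the donor Cyb5a (1239 ± 47.5 TPM in HFD and 908 ± 94.8 TPM in NFD; change of 0.45 on the log2 scale with adjusted p = 0.0283) and the heme synthesis enzyme Cpox (log2 fold change 0.43, adjusted p = 0.0331). In NAC_HFD against NFD, 2 rose: Por, the reductase that supplies electrons to all microsomal P450 enzymes (423 ± 72.4 TPM in NAC_HFD and 257 ± 29.0 TPM in NFD; change of 0.71 on the log2 scale with adjusted p = 0.00965), and Cpox (0.39, adjusted p = 0.0373). The median log2 fold change of the 13 was 0.25 in HFD against NFD and 0.03 in NAC_HFD against NFD. In NAC_HFD against HFD, 0 genes of this or any other list passed, as for the table as a whole.

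Among 12 tested genes for other arachidonic acid epoxygenases and hydroxylases, 1 rose in HFD against NFD, the epoxygenase Cyp2j5 (378 ± 27.7 TPM in HFD and 268 ± 20.1 TPM in NFD; change of 0.49 on the log2 scale with adjusted p = 0.0252). Cyp2j5 also rose in NAC_HFD against NFD (0.44, adjusted p = 0.0311), and the hydroxylase Cyp4a31 fell (14.4 ± 2.51 TPM in NAC_HFD and 47.4 ± 15.0 TPM in NFD; change of −1.60 on the log2 scale with adjusted p = 0.0092). Of 10 tested epoxide hydrolases and enzymes of arachidonate release and oxidation, 1 rose in HFD against NFD, the phospholipase Pla2g6 (21.7 ± 3.06 TPM in HFD and 13.3 ± 0.729 TPM in NFD; change of 0.66 on the log2 scale with adjusted p = 0.0182), and 0 changed in NAC_HFD against NFD.

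Of 17 tested genes of CAR, PXR, their partners and targets, 3 rose and 1 fell in HFD against NFD. The PXR gene Nr1i2 rose (34.9 ± 1.23 TPM in HFD and 21.9 ± 4.17 TPM in NFD; change of 0.67 on the log2 scale with adjusted p = 0.00854), as did Aldh1a1 (0.85, adjusted p = 0.0239) and Cyp2b9, a P450 of another subfamily (62.9 ± 34.9 TPM in HFD and 0.508 ± 0.483 TPM in NFD; change of 5.24 on the log2 scale with adjusted p = 0.0102). The carboxylesterase Ces2a fell (60.3 ± 6.51 TPM in HFD and 100.2 ± 14.4 TPM in NFD; change of −0.72 on the log2 scale with adjusted p = 0.00959). In NAC_HFD against NFD, Nr1i2 and Cyp2b9 rose (0.59 and 4.44, adjusted p 0.0116 and 0.0158) and 0 fell.

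Of 20 tested hepatocyte transcription factors, 1 fell in HFD against NFD, Foxa3 (40.8 ± 4.68 TPM in HFD and 70.0 ± 12.8 TPM in NFD; change of −0.75 on the log2 scale with adjusted p = 0.0248). Foxa3 also fell in NAC_HFD against NFD (−0.67, adjusted p = 0.0301), where Cebpb rose (0.99, adjusted p = 0.0306). Of 25 tested genes of growth hormone signalling and sex-biased expression, 3 rose in HFD against NFD and 0 fell: Cyp2b9, Cyp2a22 (12.4 ± 4.45 TPM in HFD and 1.31 ± 1.005 TPM in NFD; change of 2.57 on the log2 scale with adjusted p = 0.0417) and the signal transducer Stat5a (0.69, adjusted p = 0.0401). In NAC_HFD against NFD, 1 of the 25 rose, Cyp2b9.

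Of 15 tested genes of bile acid synthesis, 1 rose in HFD against NFD, the reductase Akr1c6 (0.67, adjusted p = 0.0464), and 0 changed in NAC_HFD against NFD. Of 15 tested genes of retinoid oxidation, Aldh1a1 and Dhrs3 rose in HFD against NFD (0.85 and 0.43, adjusted p 0.0239 and 0.0450), while in NAC_HFD against NFD Dhrs3 rose (0.57, adjusted p = 0.0110) and Aox1 fell (−0.82, adjusted p = 0.0138). Of 16 tested pericentral genes, the zone in which many P450 enzymes are most abundant, Lect2 and Aldh3a2 rose in HFD against NFD (0.995 and 0.77, adjusted p 3.24e-04 and 0.0181), and Cyp2e1, Gulo and Lect2 rose in NAC_HFD against NFD (0.61, 0.59 and 0.66). Of 15 tested periportal genes, Sult5a1 rose and the urea cycle enzyme Asl fell in HFD against NFD (0.65 and −0.88, adjusted p 0.0499 and 0.0462), and both did so in NAC_HFD against NFD (0.88 and −0.81). Over the lists from the arachidonic acid enzymes to the periportal genes, the median log2 fold change of a list was −0.22 to 0.07 in NAC_HFD against HFD, −0.17 to 0.22 in HFD against NFD and −0.25 to 0.19 in NAC_HFD against NFD.

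The genes outside the family whose levels followed Cyp2c40 and Cyp2c69 most closely are given as a description over the 12 libraries, which share their 3 groups. For Cyp2c40 these were Chfr, Fxr1 and Atg16l1, with Pearson r of 0.93, 0.89 and 0.88 on the log2(TPM + 1) scale. For Cyp2c69 they were Klf16, Plec and Gon4l, each at 0.92. Klf16, a zinc finger protein, had a mean level of 1.28 ± 0.160 TPM in NAC_HFD, 1.24 ± 0.139 TPM in HFD and 2.27 ± 0.292 TPM in NFD.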

How the data were processed

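RNA of 12 liver samples was sequenced. Per the labels' protocols, total RNA was extracted with TRIzol and treated with DNase I. Per the submitters' processing notes, fastp, HISAT, RSEM and GRCm38 were used, with no versions. The authors deposited TPM per gene, per mRNA transcript and per lncRNA transcript, and tables of comparisons with a ratio (fold change), its log2 and p-values. TPM holds no read counts, so depth and counting error are unknown, and no count test was run. No source used here gives the RSEM settings for reads that match several similar Cyp2c genes.

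The deposited TPM values were tested with limma 3.58.1 (R 4.3.3; lmFit and eBayes with trend and robust settings, two-sided) on log2(TPM + 1), in 1 model of 12 libraries with 9 residual degrees of freedom. Features needed 1 TPM in 4 libraries, and p-values were adjusted over all features tested (threshold 0.05). Fold changes on this scale understate the change of low genes. The fit was tested on simulated data. Members and gene lists were chosen with earlier results of these data known. The text gives all members, the genes of the lists that passed the test, and the 3 genes most like Cyp2c40 and Cyp2c69. The lncRNA transcript fits, the test of transcript shares and the floor in 3 libraries were added after seeing the data. Promoters were aligned with biopython 1.88.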

Additional observations from a re-analysis of the deposited data

Results flagged for a closer look

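In 3 of 60 groups of 4 libraries tested, 1 library lay far from the rest. Genes and their own transcripts are counted separately here, so the groups are not independent. How many chance would give was not tested. Cyp2c29 had 452.8 TPM in NFD 4, and 600.01 to 618.9 TPM in the other NFD libraries. Its main mRNA ENSMUST00000003137 had 451.2 TPM in NFD 4, and 598.7 to 617.8 TPM in the others. The Cyp2c50 mRNA ENSMUST00000080171 had 295.7 TPM in HFD 3, and 239.98 to 249.1 TPM in the other HFD libraries.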

How the results depend on the processing

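The 57 results were recomputed under alternative settings, which gave 1209 values. Of these, 1118 stayed close to the reported result, that is with the same direction and side of the threshold for a fold change, within a factor of 1.5 for a count of calls, whatever its split by direction, and within 1 SD for a summed level. Members called were 2 in HFD against NFD, 0 in NAC_HFD against HFD and 1 in NAC_HFD against NFD. A floor of 5 TPM gave 1 and 0 in HFD against NFD and NAC_HFD against NFD, because Cyp2c69 was then not tested, and 1 mRNA transcript in each. Without 1 library, 1 to 2 members were called in HFD against NFD, 0 to 2 in NAC_HFD against NFD and 0 in NAC_HFD against HFD. The mRNA transcripts called were then 1 to 2 in each comparison with NFD and 0 in NAC_HFD against HFD. Over all genes, 316 were called in HFD against NFD (168 with no filter on low values, 88 to 303 without 1 library), 601 in NAC_HFD against NFD (289 with no filter, 195 with only the 8 libraries compared, 212 to 619 without 1 library) and 0 in NAC_HFD against HFD (0 to 64 without 1 library, with 64 without NAC_HFD replicate 1 and 22 without HFD replicate 3).

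No pairing of samples by replicate number was seen. Deviations of same-numbered libraries correlated at −0.173 to 0.179, and those of differently numbered libraries at −0.247 to 0.219. With the number as a replicate block, 2, 0 and 1 members were called in HFD against NFD, NAC_HFD against HFD and NAC_HFD against NFD, and 225, 3 and 406 genes.

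Log2 fold changes near 0 turned sign. With quantile normalization Cyp2c69 in NAC_HFD against HFD was 0.064, Cyp2c39 in NAC_HFD against NFD 0.078 and Cyp2c50 in HFD against NFD −0.078. With median-of-ratios scaling Cyp2c37, Cyp2c39 and ENSMUST00000163090 in NAC_HFD against NFD were 0.021, 0.048 and 0.092, and Cyp2c50 in HFD against NFD −0.014 (−0.032 after rescaling to equal totals). Without 1 library, ranges were −0.19 to 0.056 for Cyp2c37, −0.20 to 0.20 for Cyp2c39, −0.015 to 0.27 for Cyp2c50 and −0.59 to 0.14 for ENSMUST00000163090 in NAC_HFD against NFD, −0.17 to 0.12 for Cyp2c50 in HFD against NFD and −0.12 to 0.21 for Cyp2c68 in NAC_HFD against HFD. The cause was not tested.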
